A study of Mus musculus with 24 samples.

Results

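Dusp1, Dusp4, Dusp5, Dusp6, Dusp14, Spry2, Spry4 and Spred1 encode brakes on MAP kinase signalling, and their transcripts were followed in mouse cortex after a stroke. The 8 genes were chosen by symbol, as phosphatases of the MAP kinases and as Sprouty and Spred inhibitors of the pathway that leads to them. All 8 were found in each of the 4 deposited tables, among 14014 genes that the tables share. No filter on low values removed any of them.

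Growth factors, neurotrophins and synaptic activity switch on Ras, which passes the signal through Raf and MEK to the kinase ERK, while stress and cytokines act more through JNK and p38. Active ERK induces transcripts of its own inhibitors, so that many of these genes are read as markers of recent pathway activity. Dual-specificity phosphatases such as DUSP1 and DUSP6 remove phosphate from the kinases themselves, whereas Sprouty and Spred proteins act upstream, between the receptor and Raf. In the cortex several of these genes belong to the activity-dependent transcripts of neurons.

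Total RNA from the cortex was depleted of ribosomal RNA and sequenced in 24 libraries, 6 from each of 4 groups: WT and KO animals, each with a CL and a PI sample. All animals were males of 3 to 4 months carrying the strain name C57BL/6N-Cdr1asem1Nikr, and all had a filament placed for 1 h in the middle cerebral artery, then 1 day of reperfusion, a model of ischemic stroke. KO animals lack the circular RNA ciRS-7 (Cdr1as), which binds the microRNA miR-7. CL and PI mark 2 samples of 1 animal, are not spelled out in the labels, and are used as given. There was no group without the occlusion, so the change from CL to PI is a contrast within operated animals.

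Values are log2 CPM (read counts scaled to library size, on a log2 scale) in 4 tables, each holding 2 groups and scaled on its own. In 100% of genes the 2 lowest of a group's 6 values were equal, and so were the 2 highest, because extreme values had been replaced by the group's quartiles. The lowest, median and highest values given below are these deposited values, and their spread is smaller than that between animals. Group levels and tests use the mean of the 4 inner values that can be recovered (a trimmed mean, n = 6 libraries), with the standard error (SE) of that mean or of the difference. Genes were called where the adjusted p was below 0.05 in a moderated trimmed-mean test (limma's empirical Bayes step, two-sided, Benjamini-Hochberg over all genes of a table). The 4 comparisons share libraries in pairs, since each group enters 2 of them, so they are not independent of each other.

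The libraries held 3.73 to 10.5 M reads (megareads) that count toward these values (median 6.91 M reads), and 3 reads amounted to 0.286 to 0.803 CPM. At the median depth of a group, Dusp4 rested on 33.6 to 46.8 reads and Spry4 on 39.4 to 60.9, while Spred1 rested on 3840 to 4530, so counting error alone reached 17.3% for Dusp4 and 1.61% for Spred1. Cdr1as lay between 3434 and 3801 CPM in CL WT and at no more than 0.0591 CPM in CL KO. In PI WT it lay between 2610 and 2931 CPM, and in PI KO at no more than 0.165 CPM. Markers of neurons (10 of 10) and of cortical excitatory neurons (6 of 6) were all listed in the comparisons of PI with CL. Striatal markers were listed for 4 of 6, so being listed does not by itself tell cortex from other brain tissue. Levels in bulk tissue do not separate fewer cells of a type from less RNA per cell, and this holds for every difference below.

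The promoters are shown because Dusp1 and Dusp6 were the 2 genes called between PI and CL in wild type, and because Dusp5, an inducible nuclear phosphatase gene like Dusp1, had a value above 0 there that did not pass. Each window runs from 250 bases before the RefSeq start of the transcript to 50 after it on GRCm38.p6, read along the gene's own strand. RefSeq windows were found for 6 of the 8 genes (not for Dusp4 and Spry4). Capitals mark matches to the motifs searched on both strands, which were the cyclic AMP response element TGACGTCA, its core TGACG, the AP-1 motif TGANTCA, the ETS core CCGGAA and the CArG box bound by serum response factor. The core lies within the full element. In Dusp1 the window is chr17:26508423-26508722 on the minus strand, in Dusp5 chr19:53528895-53529194 on the plus strand, and in Dusp6 chr10:99262981-99263280 on the plus strand.
Dusp1: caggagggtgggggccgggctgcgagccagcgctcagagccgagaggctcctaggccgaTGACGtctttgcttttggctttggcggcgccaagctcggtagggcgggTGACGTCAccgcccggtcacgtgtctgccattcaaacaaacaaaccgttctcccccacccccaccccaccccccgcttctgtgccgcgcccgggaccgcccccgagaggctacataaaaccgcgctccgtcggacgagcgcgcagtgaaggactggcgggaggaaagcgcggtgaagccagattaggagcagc
Dusp5: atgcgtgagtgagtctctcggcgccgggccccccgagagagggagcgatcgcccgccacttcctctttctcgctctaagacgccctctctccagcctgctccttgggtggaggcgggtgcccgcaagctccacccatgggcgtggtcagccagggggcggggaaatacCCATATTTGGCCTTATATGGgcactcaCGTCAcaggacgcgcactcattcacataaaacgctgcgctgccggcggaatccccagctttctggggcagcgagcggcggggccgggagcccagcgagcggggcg
Dusp6: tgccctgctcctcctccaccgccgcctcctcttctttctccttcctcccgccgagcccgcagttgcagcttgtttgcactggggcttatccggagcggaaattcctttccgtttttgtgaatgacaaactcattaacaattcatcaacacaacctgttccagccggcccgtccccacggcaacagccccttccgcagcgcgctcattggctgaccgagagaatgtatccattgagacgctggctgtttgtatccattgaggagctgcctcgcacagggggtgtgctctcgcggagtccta

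Dusp1 had a full cyclic AMP response element 143 to 136 bases before the start and a further core 191 to 187 bases before it. Of 32851 RefSeq promoters of the same length, 1.79% held the full element and 20.8% the core. Dusp5 had 2 adjoining CArG boxes, 82 to 73 and 72 to 63 bases before the start, where 1.63% of promoters held at least 1, and a core of the cyclic AMP element 55 to 51 bases before it. In Dusp6 and Spred1 none of the 5 motifs was found in the window. Dusp14 and Spry2 each held 1 ETS core (14.9% of promoters), and no window of the 6 held the AP-1 motif (7.81% of promoters). These are matches of letters and carry no measure of binding.

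Because the KO removes a binder of miR-7, the annotated 3' UTRs were also read for the miR-7 seed match GTCTTCC. The mature RefSeq sequences, with the seed in capitals, share 1 seed.
mmu-miR-7a-5p: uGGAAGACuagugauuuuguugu
mmu-miR-7b-5p: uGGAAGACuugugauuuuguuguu
The match occurred in 0 of the 8 genes, over the longest annotated 3' UTR of each, from 576 bases in Dusp14 to 4330 in Spred1. Among 12369 measured genes with such a UTR, 15.9% held it, at a median UTR length of 1510 bases. Of the 8 genes, all but Spry4 and Spred1 have a shorter one, and the share was not matched for length. Other types of miR-7 site were not searched.

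On GRCm38 (GENCODE M21, matched by symbol) all 8 are protein-coding. Dusp1 (ENSMUSG00000024190) spans chromosome 17 from 26505590 to 26562128 on the minus strand, a span that includes an exon overlapping Ergic1 on the other strand. Dusp5 (ENSMUSG00000034765) spans chromosome 19 from 53529109 to 53542431, and an antisense gene, AC137853.2, lies over its 5' exon. How the counting used strand is not given in the sources used here, so reads in those overlaps cannot be assigned to 1 gene. Dusp6 (ENSMUSG00000019960) spans chromosome 10 from 99263231 to 99267489, and Spred1 (ENSMUSG00000027351) chromosome 2 from 117121374 to 117182279. Dusp4 (ENSMUSG00000031530) spans chromosome 8 from 34807297 to 34819894, Dusp14 (ENSMUSG00000018648) chromosome 11 from 84048041 to 84069261, and Spry2 (ENSMUSG00000022114) chromosome 14 from 105891947 to 105896819. None of these 5 overlaps another annotated gene.

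Per kilobase of exon, Spred1 stood far above the other genes, at 89.2 CPM per kb in CL WT. Dusp6 followed at 15.8 CPM per kb, Dusp14 at 14.5 and Spry2 at 14.4, and the deposited values of neighbours in this trio overlapped. Dusp1 stood at 6.22 CPM per kb, Dusp5 at 3.51, Dusp4 at 2.30 and Spry4 at 1.28, and here neighbouring ranges did not overlap. In PI WT the order changed at Dusp6, which stood at 10.4 CPM per kb, below Spry2 at 15.7 and Dusp14 at 15.0, and its range (8.93 to 11.9) no longer met that of Dusp14 (14.0 to 15.8). Dusp1 came down to 4.51 CPM per kb in PI WT, where its range met that of Dusp5 at 4.22. In CL KO the order was that of CL WT except that Spry2 (16.8 CPM per kb) and Dusp14 (16.3) changed places with overlapping ranges. In PI KO Dusp6 was again below Spry2 and Dusp14, at 15.0 CPM per kb, but its range (10.4 to 19.1) covered that of Dusp14.

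**Figure D1:**
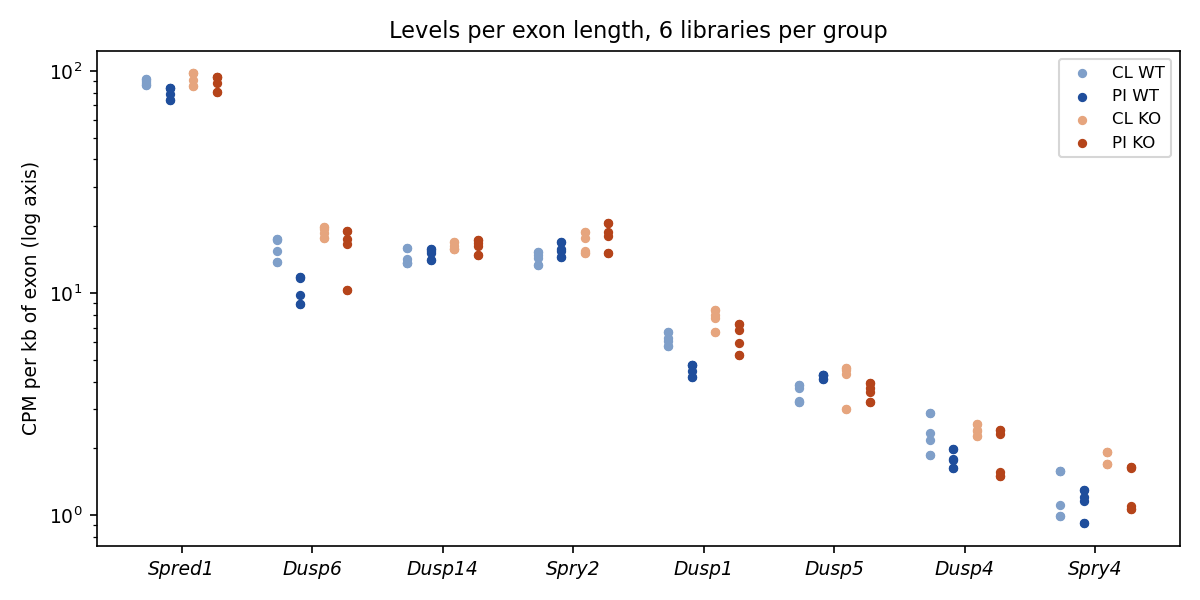
Level of each gene in CPM per kb of exon (log axis), 1 point per library in the 4 groups of 6, with tied deposited values lying on each other. The Spred1 points of CL WT surround the trimmed mean of 89.2 CPM per kb and those of Spry4 that of 1.28, and the Dusp6 points of PI WT (8.93 to 11.9) lie below those of CL WT (13.7 to 17.5).

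Of the 8 genes, Dusp1 and Dusp6 fell from CL to PI in wild-type animals and none rose. Of all 14489 genes tested 10.6% were called, 5.40% lower and 5.20% higher. With each library centred on its median gene the higher share of the calls was 36.5% instead of 49.1%. The other 6 genes did not pass the test. Of the 8, 3 lay above 0 (52.3% of all genes), and the median log2 difference of the 8 was -0.18 against 0.01 over all genes. Deposited values of PI WT and CL WT did not overlap for 4 of the 8 genes (Dusp1, Dusp5, Dusp6 and Spred1), where 32.8% of all genes had such separation, and an unadjusted p under 0.05 was reached by the same 4, where 23.9% of all genes reached it. Limma on the deposited values called 5 of the 8 and 44.6% of all genes. Of all genes 16.5% were higher and 16.3% lower in PI without overlap.

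Dusp6 encodes a cytoplasmic phosphatase specific for ERK, and its transcript is among the standard readouts of fibroblast growth factor signalling. In CL WT the 6 libraries ran from 5.43 to 5.77 log2 CPM (median 5.68), and in PI WT from 4.81 to 5.22 (median 5.07). The deposited values of PI WT all lay below those of CL WT, as did the recovered ones (at most 5.22 against at least 5.37), while the outermost library of each group is not known. The trimmed mean fell by 0.60 on the log2 scale (SE 0.14, 95% interval -0.91 to -0.28, adjusted p = 0.0186), which is 33.9% lower in CPM. Without a trend of the variance on expression this call was lost (adjusted p = 0.0799). Since the groups did not overlap, the deposited value was necessarily lower in PI in 6 of 6 animals, by 0.40 to 0.96. Such a pattern was seen in 20.3% of all genes.

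Dusp1 encodes a nuclear phosphatase of JNK, p38 and ERK, and is an immediate early gene induced by stress, glucocorticoids and cyclic AMP. Its libraries ran from 4.26 to 4.47 log2 CPM (median 4.36) in CL WT and from 3.80 to 3.97 (median 3.93) in PI WT. The groups did not overlap on deposited or on recovered values. The trimmed mean fell by 0.46 (SE 0.10, 95% interval -0.68 to -0.24, adjusted p = 0.0108), or by 27.5% in CPM. The deposited value was lower in 6 of 6 animals, by 0.37 to 0.54, which follows from the lack of overlap.

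Dusp4 and Dusp5 encode the other nuclear, inducible phosphatases of the set, DUSP5 acting on ERK alone. Dusp5 was the 1 gene with all deposited values of PI WT above those of CL WT, from 3.34 to 3.41 log2 CPM (median 3.40) against 2.99 to 3.25 (median 3.11). Its difference of 0.27 (SE 0.12, 95% interval 0.02 to 0.52) had an unadjusted p of 0.0383 from the moderated test and did not pass (adjusted p = 0.179). That the deposited value was higher in PI in 6 of 6 animals, as in 21.4% of all genes, follows from the lack of overlap. Dusp4 ran from 2.17 to 2.44 log2 CPM in PI WT (median 2.29) and from 2.36 to 2.99 in CL WT (median 2.63). The Dusp4 groups overlapped, and the difference of -0.36 (SE 0.22) did not pass (adjusted p = 0.348).

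Dusp14 encodes a small atypical phosphatase without the kinase-docking domain of the others. Its difference in wild type was 0.05 (SE 0.10, 95% interval -0.16 to 0.26, adjusted p = 0.809), with 4.77 to 4.94 log2 CPM in PI WT and 4.74 to 4.95 in CL WT. The groups overlapped, and the interval leaves room for a difference in either direction.

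Among the Sprouty and Spred genes none passed in wild type. Spry2 ran from 4.93 to 5.15 log2 CPM in PI WT (median 5.03) and from 4.81 to 4.99 in CL WT (median 4.94), a difference of 0.12 (SE 0.10, adjusted p = 0.498). The Spry2 groups overlapped, while the deposited value was higher in PI in 6 of 6 animals, by 0.02 to 0.19, as in 21.4% of all genes. Spry4 differed by -0.19 (SE 0.24, adjusted p = 0.700), with 2.13 to 2.62 log2 CPM in PI WT and 2.25 to 2.92 in CL WT. Spred1, whose product binds neurofibromin and brings it to Ras at the membrane, ran from 8.97 to 9.15 log2 CPM in PI WT (median 9.10) and from 9.20 to 9.28 in CL WT (median 9.24). The deposited Spred1 values of the groups did not overlap, and so were lower in PI in 6 of 6 animals. The difference of -0.17 (SE 0.07, 95% interval -0.31 to -0.02) did not pass (adjusted p = 0.138). With the animal as a block, in a paired trimmed-mean test, Spred1 passed (adjusted p = 0.0476).

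**Figure D2:**
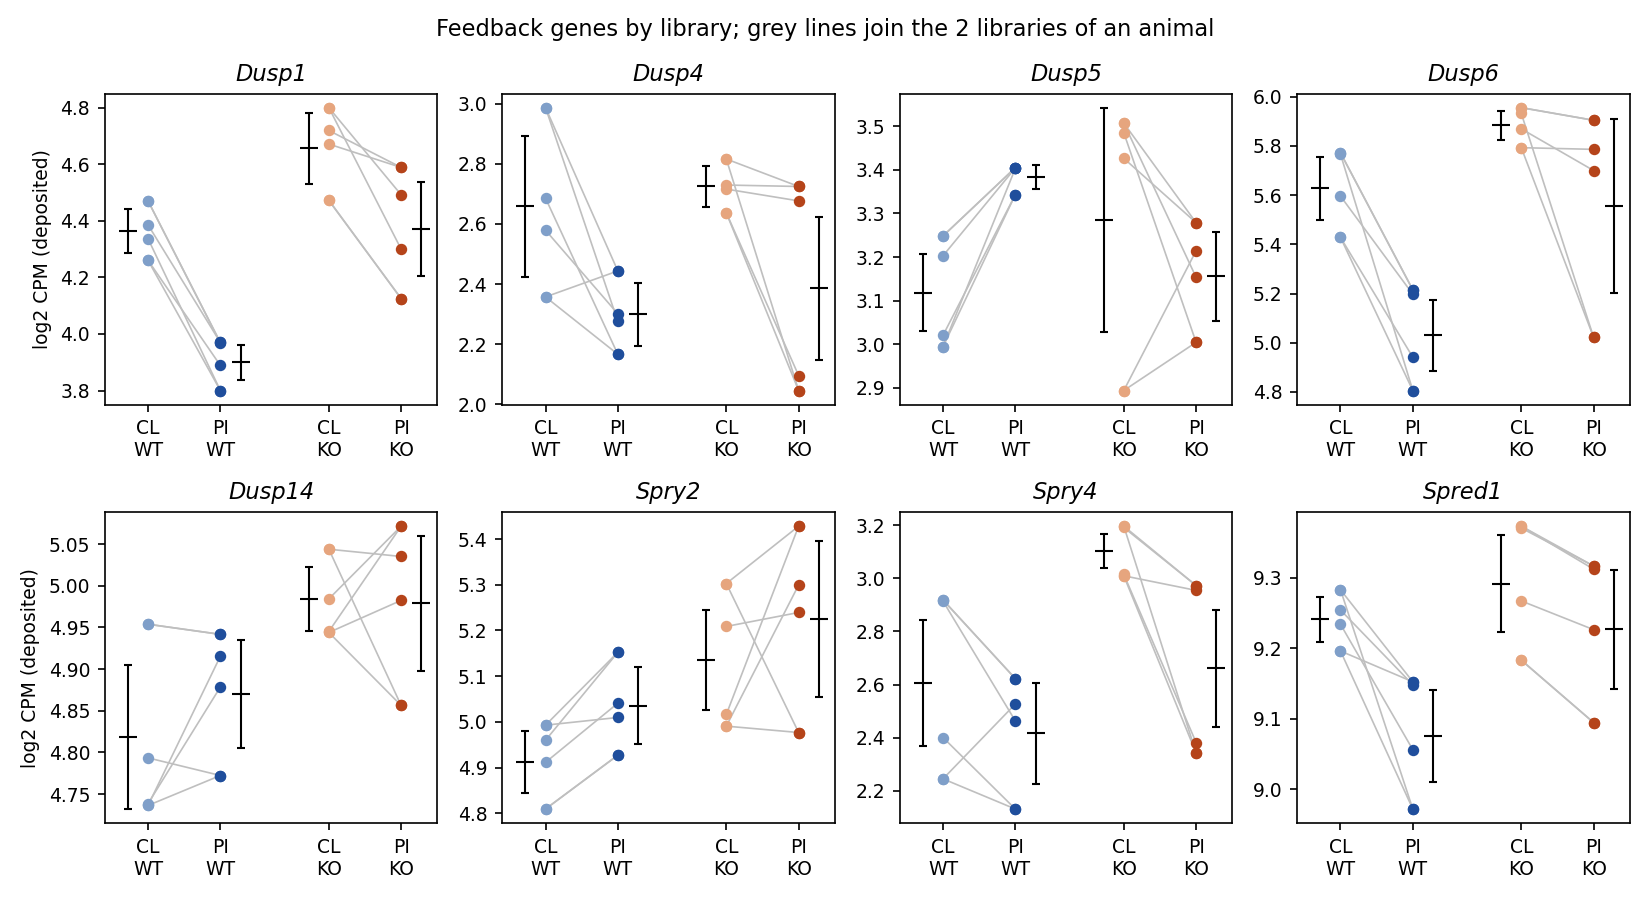
Deposited log2 CPM of each gene in every library of the 2 tables of PI and CL (points, 6 per group with ties lying on each other, grey lines joining the 2 libraries of an animal), with the trimmed mean and its SE beside each group (black). Dusp1 and Dusp6 lie lower in PI WT than in CL WT without overlap, and so in 6 of 6 animals. The lines of the KO animals are more spread, above all for Dusp6, from 5.02 to 5.90 in PI KO.

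In KO animals none of the 8 genes was called between PI and CL, where 10.0% of 14338 genes were (50.8% of the calls higher, or 37.3% after centring on the median gene). The unadjusted p was under 0.05 for 1 gene, Spry4, against 24.9% of all genes, and limma on the deposited values called 3 of the 8 (46.5% of all genes). The differences of 7 genes were below 0, all but that of Spry2 (49.9% of all genes lay above 0), with a median of -0.21 against -0.00 over all genes. The deposited value was lower in PI in 6 of 6 animals for Dusp1, Dusp4, Dusp6, Spry4 and Spred1, as in 21.2% of all genes. For Dusp4 in animal 3 and Dusp6 in animal 2 the deposited change was only -0.0048 and -0.0068, and 1 of its 2 values was drawn in. On recovered values PI was the higher there (for Dusp4 2.740 against 2.729), so the count does not hold for these genes before values were drawn in.

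Spry4, an inhibitor upstream of Ras that is induced by fibroblast growth factors, was the 1 gene without overlap in KO. Its libraries ran from 2.34 to 2.97 log2 CPM in PI KO (median 2.67) and from 3.01 to 3.20 in CL KO (median 3.10). The difference of -0.44 (SE 0.20, 95% interval -0.87 to -0.02) did not pass (adjusted p = 0.184). Such separation was found in 34.3% of all genes, and in 17.2% with PI lower.

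Dusp6 ran from 5.02 to 5.90 log2 CPM in PI KO (median 5.74) and from 5.79 to 5.96 in CL KO (median 5.90), and the difference of -0.33 had an SE of 0.25 (adjusted p = 0.471). PI KO libraries 1 and 6 stood at 5.02 as deposited, while the other 4 lay between 5.70 and 5.90. Dusp1 ran from 4.13 to 4.59 log2 CPM in PI KO and from 4.47 to 4.80 in CL KO. The difference in Dusp1 was -0.29 (SE 0.16, 95% interval -0.63 to 0.06, adjusted p = 0.299). Dusp4 differed by -0.34 (SE 0.21, adjusted p = 0.359), Dusp5 by -0.13 (SE 0.22, adjusted p = 0.771) and Spred1 by -0.06 (SE 0.09, adjusted p = 0.703). Spry2, at 4.98 to 5.43 log2 CPM in PI KO and 4.99 to 5.30 in CL KO, and Dusp14, at 4.86 to 5.07 and 4.94 to 5.04, overlapped throughout.

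An interaction tested whether KO and WT animals differed in their change from CL to PI. None of the 8 genes passed, nor did any of 14211 genes (0%). At an unadjusted p under 0.05 there were 0 of the 8 and 4.55% of all genes, and limma on the deposited values called 0 of the 8 and 13.7% of all genes. The Dusp5 contrast was the largest, at -0.40 (SE 0.26, 95% interval -0.94 to 0.15, adjusted p = 0.992), from a difference of 0.27 in wild type and -0.13 in KO. That of Dusp6 was 0.27 (SE 0.33, 95% interval -0.41 to 0.95) and that of Dusp1 0.18 (SE 0.20, 95% interval -0.25 to 0.60). That Dusp1 and Dusp6 passed in wild type and not in KO is therefore not shown to be a difference between genotypes.

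**Figure D3:**
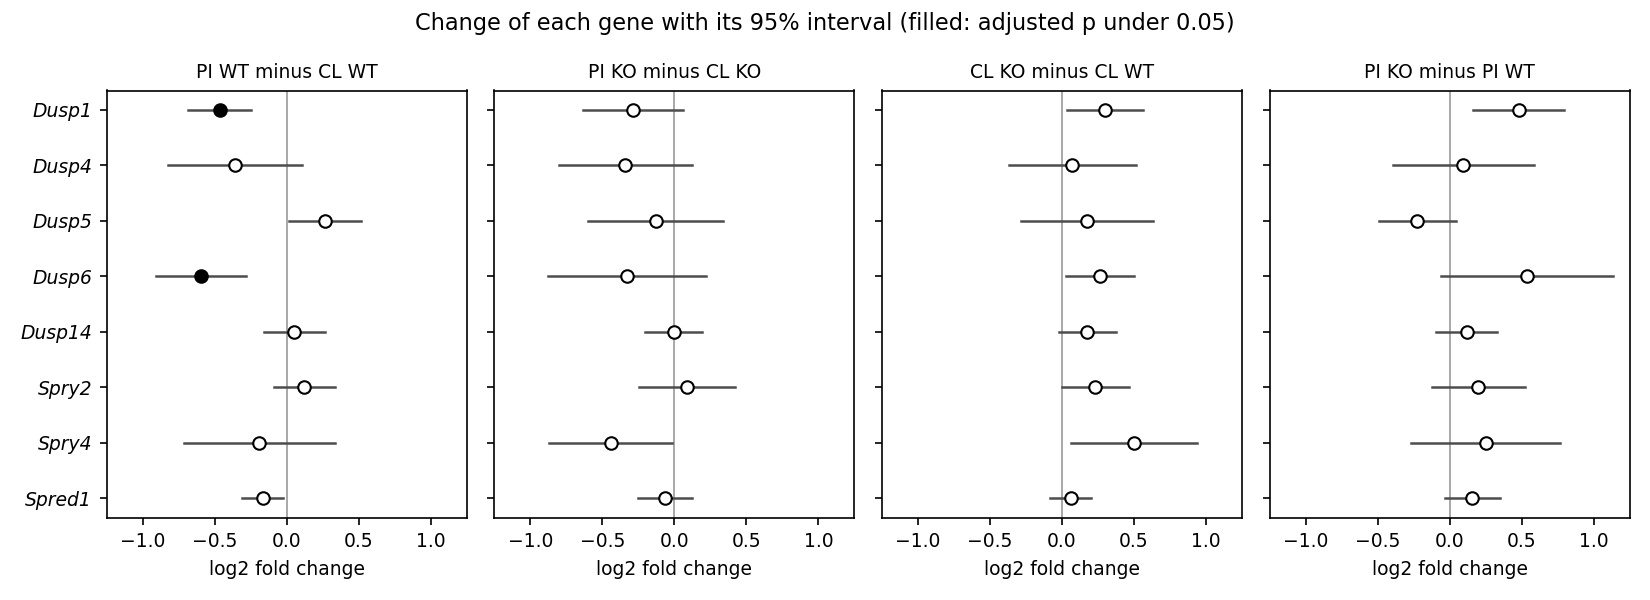
Log2 fold change of each gene with its 95% interval in the comparisons of PI with CL (WT and KO) and of KO with WT (CL and PI). Filled symbols mark the 2 called results, Dusp1 at -0.46 and Dusp6 at -0.60 in wild type, and the 8 differences of CL KO from CL WT all lie above 0.

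Between genotypes, all 8 genes had a higher trimmed mean in CL tissue of KO than of WT animals, by 0.06 (Spred1) to 0.50 (Spry4) on the log2 scale, and none was called. Of all genes there 0.0279% were called and 49.2% lay above 0. The median difference was 0.20 against -0.00 over all genes. Unadjusted p-values from the moderated test were under 0.05 for 3 of the 8 (Dusp1, Dusp6 and Spry4), where 5.73% of all genes reached that (3.16% with KO higher), and the smallest adjusted p was 0.825. Deposited values did not overlap for 4 of the 8 (Dusp1, Dusp6, Spry2 and Spry4), where 13.5% of all genes had no overlap and 6.70% had none with KO higher. Limma on the deposited values called 5 of the 8 and 16.1% of all genes.

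Spry4 had the largest of these differences, with 2.98 to 3.17 log2 CPM in CL KO (median 3.07) and 2.21 to 2.89 in CL WT (median 2.63), 0.50 apart (SE 0.20, 95% interval 0.06 to 0.94, adjusted p = 0.825). Dusp1 ran from 4.45 to 4.77 log2 CPM in CL KO and from 4.22 to 4.44 in CL WT, a difference of 0.30 (SE 0.12, 95% interval 0.04 to 0.57). Dusp6 ran from 5.76 to 5.93 against 5.39 to 5.74, a difference of 0.26 (SE 0.11, 95% interval 0.02 to 0.50), and Spry2 from 4.97 to 5.27 against 4.77 to 4.96, a difference of 0.23 (SE 0.11). The deposited values of these 4 genes did not overlap, but among the 4 recovered values per group only those of Spry4 stayed apart. The second lowest value in CL KO and the second highest in CL WT were 4.38 and 4.46 for Dusp1, 5.738 and 5.742 for Dusp6, and 4.96 and 4.97 for Spry2. For Dusp5 the 6 CL KO libraries spread from 2.87 to 3.48 log2 CPM and covered the CL WT range of 2.96 to 3.22.

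In PI tissue 7 of the 8 genes lay higher in KO than in WT and Dusp5 lay lower, and again none was called (0.0208% of genes in the table, of which 48.5% lay above 0). The median difference was 0.18 against -0.00 over all genes. Dusp1 ran from 4.16 to 4.62 log2 CPM in PI KO (median 4.43) and from 3.83 to 3.99 in PI WT (median 3.95). Its groups did not overlap, and the difference of 0.48 (SE 0.15, 95% interval 0.16 to 0.79) ranked 109 of 14452 by p, with an unadjusted p of 0.00634 from the moderated test and an adjusted p of 0.826. It was the 1 gene of the 8 with an unadjusted p under 0.05 (5.75% of all genes, 2.80% with KO higher). Dusp5 was the other gene without overlap, at 3.04 to 3.31 log2 CPM in PI KO and 3.37 to 3.43 in PI WT, a difference of -0.22 (SE 0.12, adjusted p = 0.854), where 14.1% of all genes had no overlap, 6.94% with KO higher and 7.19% with KO lower. Dusp6 differed by 0.54, but with an SE of 0.27 and overlapping values (5.06 to 5.94 in PI KO, 4.83 to 5.24 in PI WT). Limma on the deposited values called 4 of the 8 and 16.5% of all genes.

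Several of the genes were high or low in the same libraries of PI KO, CL WT and PI WT, and whether more so than other genes was not tested. In PI KO, library 3 was among the 2 highest for 8 of 8 genes and library 4 for 6, while library 6 was among the 2 lowest for 7 and library 1 for 5. In wild type, animal 3 was among the 2 lowest for 7 genes in CL and for 7 in PI, and animals 2 and 5 were among the 2 highest for 5 and 6 genes in CL and for the same numbers in PI. CL KO was mixed, with library 6 among the 2 highest for 5 genes and the 2 lowest for 3, and libraries 1 and 2 each among the 2 lowest for 4 and the 2 highest for 2. CL KO library 6 was the shallowest, at 3.73 M reads against 6.53 to 10.3 M reads in the rest of its group. The part of counting error in its ranks was not tested. Dusp5 departed from the others in PI KO, where libraries 4 and 5 were its lowest and library 1 among its highest. Egr1 and Etv5, transcripts induced through ERK, had the same PI KO libraries at their lowest pair, 31.3 CPM for Egr1 and 55.5 CPM for Etv5 in libraries 1 and 6, and at their highest pair, 79.1 and 86.0 CPM in libraries 3 and 4. Etv5 was among the 2 genes picked as nearest to Dusp6 (below), so its match follows in part from that pick. Both Egr1 and Etv5 were picked after values were seen, and the other ERK-induced transcripts were not read by library. Their match is thus not a separate result. Summed markers varied among these libraries in several ways. Those of cortical excitatory neurons were lowest in libraries 1 and 6, at 501.0 CPM in library 1 and 500.5 in library 6, and highest in library 3 at 594.2, with library 4 at 523.1. Those of striatal neurons were highest in libraries 1 and 6, at 122.9 and 118.1 CPM against 96.3 to 106.8 in the other 4. Neuronal markers were lowest in library 5, at 5932 CPM, with 6474 in library 6, 6096 in 1, 6292 in 3 and 6631 in 4. Reactive astrocyte markers stood at 530.7 CPM in library 1, 387.9 in 6, 440.4 in 3 and 386.5 in 4. The part of tissue composition in these library differences was not tested.

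**Figure D4:**
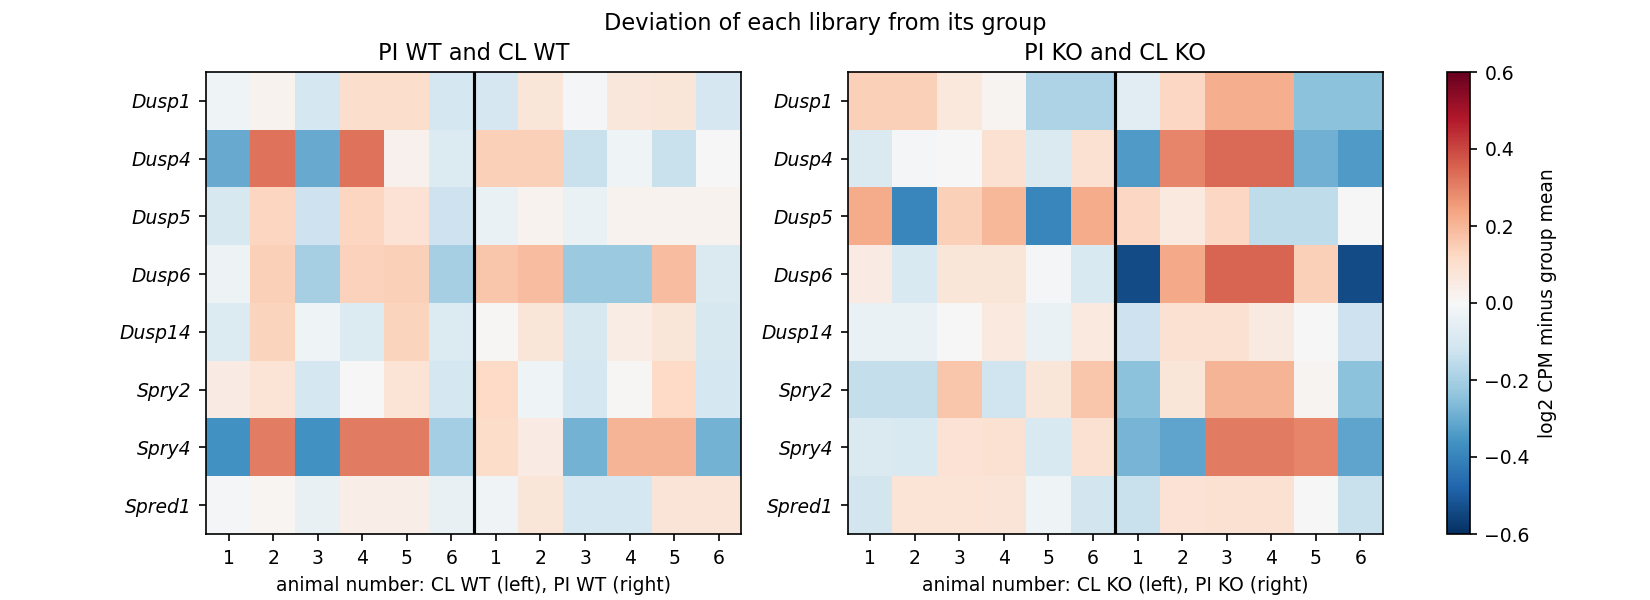
Deviation of each library's deposited log2 CPM from the mean of its group, for the 8 genes (rows) and the animal numbers (columns) of CL and PI, in wild type (left panel) and KO (right panel). In PI KO, columns 1 and 6 are low and columns 3 and 4 high for most genes, with the widest range for Dusp6 (5.02 to 5.90).

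The genes most like Dusp1 and Dusp6 over the 24 libraries were taken as those with the smallest mean absolute difference after centring each gene in each table, among 11929 genes. Centring within a table keeps the step from CL to PI. Similar changes in the genes below thus follow from how they were picked, and are not a separate result. Nearest to Dusp1 were Fam107a, at 0.0855 on the log2 scale, and Selenop, at 0.0913. Fam107a fell in wild type by 0.46 (adjusted p = 0.00313) and differed by -0.29 in KO (adjusted p = 0.0658), and Selenop fell by 0.51 (adjusted p = 0.00113) and by 0.47 (adjusted p = 0.000187). Nearest to Dusp6 were Pcsk1, at 0.0995, and Etv5, at 0.104. Pcsk1 encodes a prohormone convertase and fell by 0.53 in wild type (adjusted p = 0.0245), against -0.49 in KO (adjusted p = 0.0836). Etv5, an ETS factor that like Dusp6 is a standard target of fibroblast growth factor signalling, fell by 0.56 in wild type (adjusted p = 0.0213), against -0.39 in KO (adjusted p = 0.200).

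The other brakes of the pathway were examined in lists. Of the other MAP kinase phosphatases 4 of 6 were measured, and Dusp8, a JNK and p38 phosphatase of neurons, was the 1 called, falling from CL to PI by 0.41 in wild type (SE 0.08, adjusted p = 0.00477) and by 0.31 in KO (SE 0.09, adjusted p = 0.0409). Of the other Sprouty and Spred genes 3 of 4 were measured, and Spred3 fell in wild type by 0.44 (SE 0.13, adjusted p = 0.0485) and differed by -0.51 in KO (SE 0.17, adjusted p = 0.0820). Of 10 other feedback and Ras GTPase-activating genes 1 rose and 1 fell in wild type, and 2 rose and 1 fell in KO. Lrig1, a receptor inhibitor, rose by 0.79 in wild type (adjusted p = 0.000281) and by 1.06 in KO (adjusted p = 5.43e-05). Errfi1, a feedback inhibitor of the EGF receptor, rose in KO by 0.37 (adjusted p = 0.0377). Transcripts of brakes thus moved in both directions.

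Among 18 genes of the ERK cascade itself only Nras was called in either genotype, with a rise of 0.23 in wild type (SE 0.06, adjusted p = 0.0306), and the list medians were -0.04 in wild type and -0.06 in KO. Of 10 genes of the JNK and p38 cascade, Mapk10, the neuronal JNK3, fell by 0.18 in wild type (adjusted p = 0.0398) and by 0.24 in KO (adjusted p = 0.0212), and Map2k4 fell by 0.17 in wild type (adjusted p = 0.0281).

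Ligands and receptors act upstream of the brakes. Of 16 measured ligands 2 rose and 2 fell in wild type, and 2 rose and 1 fell in KO. Fgf2 rose by 1.16 in wild type (SE 0.13, adjusted p = 0.000168) and by 1.14 in KO (SE 0.16, adjusted p = 0.000872). Hbegf, a ligand of the EGF receptor, rose by 1.04 (adjusted p = 0.00209) and by 1.17 (adjusted p = 0.00123). Igf2 fell by 0.76 (adjusted p = 0.000367) and by 0.77 (adjusted p = 0.0114), and Fgf1 fell in wild type by 0.45 (adjusted p = 0.00645). Of 16 measured receptor tyrosine kinases 2 rose and 3 fell in wild type, and 1 rose and 2 fell in KO. Met, the receptor of hepatocyte growth factor, rose by 0.58 in wild type (adjusted p = 0.000785) and by 0.41 in KO (adjusted p = 0.0134). Fgfr1 rose by 0.32 in wild type (adjusted p = 0.0380). Kit fell by 0.41 in wild type (adjusted p = 0.0193). Erbb4 fell by 0.37 (adjusted p = 0.00733) and by 0.25 (adjusted p = 0.0175), and Ntrk2, the receptor of BDNF, fell by 0.31 (adjusted p = 0.000967) and by 0.25 (adjusted p = 0.0152).

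Transcripts known to be induced by ERK split as well. Of 16 measured, 3 rose and 4 fell in wild type and 3 rose and 3 fell in KO, with medians of -0.16 and -0.28. Egr1 fell by 1.08 in wild type (SE 0.14, adjusted p = 0.000480), Arc by 0.69 (SE 0.16, adjusted p = 0.0134) and Egr3 by 0.67 (SE 0.11, adjusted p = 0.00251). In KO Egr2 fell by 2.0 (SE 0.37, adjusted p = 0.00504), Egr3 by 0.82 (SE 0.18, adjusted p = 0.0116) and Fosl2 by 0.71 (SE 0.14, adjusted p = 0.00626). Myc, a growth-associated transcription factor, rose in both, by 0.98 (SE 0.29, adjusted p = 0.0482) and by 1.30 (SE 0.33, adjusted p = 0.0254). None of these listed genes was called between KO and WT. In CL KO against CL WT, 12 of the 16 ERK-induced transcripts lay above 0 and 7 had an unadjusted p under 0.05 in the moderated test. Of all genes there 49.2% lay above 0 and 5.73% reached such a p. The median difference of the 16 was 0.26, beside 0.20 for the 8 feedback genes and -0.00 over all genes. The list stood nearer to all genes in PI KO against PI WT. There 10 of 15 measured lay above 0 (48.5% of all genes) and 3 had an unadjusted p under 0.05 in the moderated test (5.75% of all genes). Their median was 0.11, beside 0.18 for the 8 feedback genes.

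**Figure D5:**
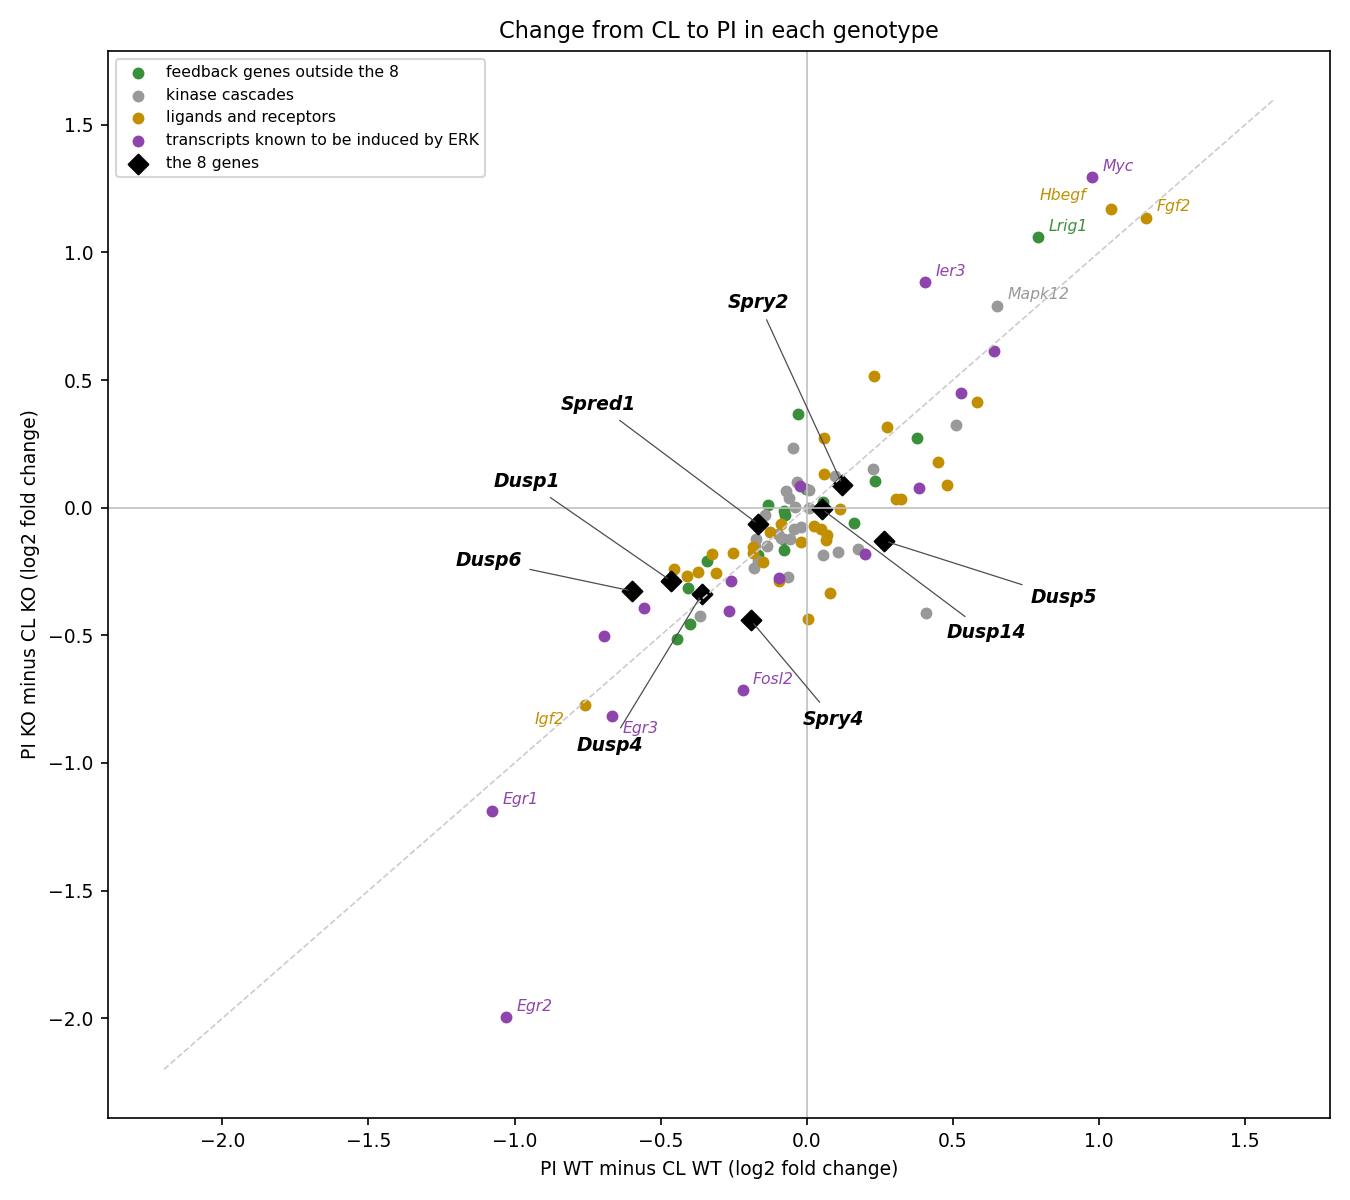
Log2 fold change from CL to PI in wild type (x axis) and KO (y axis) for the 8 genes (black diamonds) and the listed genes of the pathway (circles coloured by list), with the line of equal change. Of the 8, 7 lie below 0 on the y axis and 5 on the x axis, while Fgf2, Hbegf, Lrig1 and Myc lie above 0 on both.

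Markers of several cell types were called between PI and CL as well. All 7 reactive astrocyte markers rose in wild type and all 6 measured rose in KO, and their summed level went from 100.2 to 123.2 CPM in CL WT to 405.3 to 469.4 in PI WT. In KO it went from 94.9 to 112.2 CPM in CL to 386.5 to 542.9 in PI. Of 10 neuronal markers 3 fell in wild type, with summed levels of 7287 to 7836 CPM in CL WT and 6158 to 6877 in PI WT, and in KO 3 fell and 1 rose, with 7444 to 7657 CPM in CL and 5932 to 6631 in PI. Of 6 cortical excitatory markers 1 fell in each genotype, and the sums did not overlap, at 627.7 to 721.1 CPM in CL WT and 514.2 to 551.3 in PI WT, and in KO animals at 642.2 to 694.8 for CL against 500.5 to 594.2 for PI. Of 4 measured striatal markers 1 rose and 1 fell in wild type and 1 fell in KO, with 119.8 to 150.9 CPM in CL WT and 100.4 to 120.7 in PI WT, and in KO animals with 107.3 to 140.4 for CL against 96.3 to 122.9 for PI. The sums weigh abundant genes most, and by gene 3 of the 4 lay above 0 in each genotype (median 0.04 in wild type and 0.19 in KO). Of 7 astrocyte markers 3 fell and 1 rose in wild type, the sum going from 7326 to 7723 CPM in CL WT down to 6333 to 6737 in PI WT. Of 7 oligodendrocyte markers 1 fell in wild type, with 2147 to 2342 CPM in CL WT and 1499 to 2113 in PI WT. Of 7 microglial markers 2 rose and 1 fell in each genotype. Neutrophil and monocyte markers were listed for 2 of 8, with 0 called, 1 above 0 and 1 below 0 in each genotype. Their sum was 4.95 to 5.69 CPM in CL WT and 6.11 to 10.2 in PI WT. In KO animals it overlapped, at 4.95 to 7.82 for CL against 7.35 to 12.0 for PI. The part of these marker differences in the lower Dusp1 and Dusp6 of PI WT was not tested. Between the genotypes in CL no marker was called. Neuronal sums stood at 7316 to 7512 CPM in KO and 7119 to 7654 in WT, with 5 of 10 markers above 0, and cortical excitatory sums at 631.1 to 682.0 and 612.8 to 704.1, with 5 of 6 above 0 (median 0.12). Microglial markers lay above 0 in 7 of 7 (median 0.20), with sums of 160.7 to 173.9 CPM in KO and 150.4 to 162.5 in WT, and oligodendrocyte markers lay below 0 in 7 of 7 (median -0.18), with 1678 to 2286 and 2096 to 2289. The part of these differences in the values of the 8 genes in CL KO was not tested.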

How the data were processed

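RNA of 24 mouse cortex samples was measured after ribosomal depletion, in libraries grouped by their titles, which also name the animal. Libraries were made with the CORALL kit, per the labels' protocols. The build mm10 is given in the submitters' processing notes. The aligner, the counting, its use of strand and the scaling are not given in the sources used here. The deposited values are log2 CPM, with 0.001 CPM in place of 0, in 4 tables of 14489, 14338, 14323 and 14452 genes, and 0 columns were left unused. Between the 2 tables that hold it, a library's values differed by 0.0256 to 0.0364 (median over genes), so each test stays within a table.

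The deposited values were Winsorized, which no label records. The tied values equal 0.75 times the second value plus 0.25 times the next, and the 4 inner values were solved from this. Trimmed means of these, with Winsorized sums of squares and 6 degrees of freedom (12 for the interaction), were passed to limma 3.58.1 in R 4.3.3 with a trend on expression, and tested on simulated data. p-values measure the spread between the libraries of a group, each from another animal. The main tests did not use the pairing of PI and CL libraries of 1 animal, which entered only with the replicate block. No count test was run, because 4 of 6 values are not reads. Depth was read from the step between low values (78.4% to 90.1% whole within 0.03 read), and limits of 3 reads cover counting error only.

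The members and all lists were chosen with earlier results of these data known. Besides the members, the text names called genes of each list, up to 4 per list and comparison by size of change, and the 2 genes nearest to each called member with a mean log2 CPM of at least 2. One such gene is not reported here. Egr1 and Etv5 per library were added after values were seen. Alternatives were limma on the deposited values, no variance trend, centring on the median gene, median-of-ratios scaling, a minimum mean log2 CPM of 1, log2(CPM + 0.5), and the replicate block. The labels give the same animal for a PI and a CL library of a genotype, so those are paired (median correlation of deviations 0.0814 in WT and 0.0838 in KO). KO and WT share only a number, and there the medians were 0.0324 in CL and 0.0688 in PI. The pairing thus rests on the labels, not on these correlations.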

Additional observations from a re-analysis of the deposited data

How the results depend on the processing

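Of 240 values of single genes under alternatives other than limma on the deposited values, 237 kept their direction and their side of the threshold. Without a variance trend Dusp6 in wild type lost its call (adjusted p = 0.0799, range over all alternatives 8.68e-07 to 0.0799), while Dusp1 kept it throughout (4.25e-06 to 0.0305). Dusp14 in KO changed sign with median-of-ratios scaling, from -0.0053 to 0.0028. Limma on the deposited values, which takes the drawn-in spread as real, newly called 15 of 40 values without the replicate block and 29 of 80 over the fits with and without it. Over all genes limma without the block called 6459 and 6666 genes between PI and CL (1537 and 1440 in the trimmed-mean test) and 2311 and 2388 between genotypes (4 and 3).

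The count of called genes from CL to PI in wild type was 2, and became 1 without the variance trend and 5 with limma on the deposited values. In KO it was 0, and 3 with limma. Between genotypes it was 0, and with limma 5 in CL and 4 in PI. With limma and the replicate block the counts were 6 in wild type, 5 in KO, 3 in CL, 1 in PI and 1 for the interaction (Dusp5). Over all genes that fit called 6614 of 14489 in wild type and 6759 of 14338 in KO. It called 1868 of 14323 in CL, 1800 of 14452 in PI and 2216 of 14211 for the interaction. In CL and PI the block joins KO and WT animals that share only a number.

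In the paired trimmed-mean test with the replicate block, Spred1 in wild type was newly called, at -0.17 (adjusted p = 0.0476), and no other call on the 8 genes changed. Over all genes the block moved calls to 2275 and 2154 between PI and CL. Between KO and WT, whose numbers are shared but mark no common animal, correlations ran from -0.181 to 0.134, and the block gave 85 genes in CL, 6 in PI and 1 for the interaction. Each library correlated best with its own number in 3 (CL) and 1 (PI) of 6 cases. For PI and CL libraries of 1 animal this was so in 5 of 6 in WT and 3 of 6 in KO. Depth limits Dusp4 and Spry4 most, and the extremes drawn in before deposit limit all 8.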
